A study of Arabidopsis thaliana with 12 samples.

Results

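The GH9B endoglucanases described here are GH9B8, GH9B11, GH9B12 and GH9B16 of Arabidopsis thaliana. They are the GH9 genes that a probe of this array names on its own: a probe was taken when its platform annotation held exactly 1 gene and that gene was GH9B8 (AT2G32990), GH9B11 (AT2G44560), GH9B12 (AT2G44570) or GH9B16 (AT4G38990). This gave 4 genes, each with 1 probe, of the 691 genes that a probe with 1 gene name measures. The RefSeq table holds 25 GH9 genes. Besides the 4, another 8 are annotated only on probes shared by several genes, and 13 are named by no probe.

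All plants were wild type of the Landsberg ecotype, treated with 50 µM paraquat, a herbicide that is reduced by photosystem I in the light and in turn reduces oxygen to superoxide. The light group of 6 columns of values came from plants returned to light for 30 min once 12 h of darkness had ended. The dark group of 6 columns came from plants kept in darkness for 12 h. Every column carries paraquat, so the comparison is of light against dark within paraquat treatment, and the later sampling of the light group cannot be told apart from light. The labels do not say which organ was taken, or whether the 6 columns of a group are separate plants, and p-values measure the spread between columns, which may be technical.

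Glycosyl hydrolase family 9 enzymes of plants are endo-1,4-beta-glucanases: they cut the inner bonds of beta-1,4-linked glucan chains such as cellulose and related wall glucans. Class A members, among them KORRIGAN, are anchored in membranes and take part in cellulose synthesis. Class B members are secreted to the cell wall and have the catalytic domain alone, and class C members carry an added carbohydrate-binding module. Secreted members are known for wall loosening during growth, for organ shedding and for fruit softening.

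The values are deposited linear intensities with a shared ceiling of 100, for 3439 probes. Column totals lay between 3466 and 3509 in light and between 3467 and 3664 in dark. Between 132 and 146 probes were listed at exactly 0 in a light column and between 129 and 148 in a dark column. The sources used here do not say what an exact 0 stands for. Of the 23 green tissue markers, 5 were measured, and their summed intensity ranged from 38.2 to 48.2 in light and from 30.9 to 40.3 in dark. These sums are of deposited values. The largest share was PSBW, a small protein of photosystem II, with 23.9 ± 1.55 in light and 17.7 ± 1.87 in dark (SD, n = 6 each). After quantile normalisation its log2 difference was 0.24, which passed with the replicate block and not without it (limma adjusted p = 0.0543, blocked 0.0409). On the same normalised scale, PSAN and LHB1B2 differed by log2 0.17 and 0.01. SBPASE and PRK, enzymes of the Calvin cycle, had log2 differences of -0.13 and -0.06, and the median of the 5 was 0.01. No root marker of 12 was measured.

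GH9B12 was higher in every light column than in any dark column. In columns 1 to 6 its intensity was 0.256, 0.268, 0.258, 0.250, 0.206 and 0.210 in light, against 0, 0.0829, 0.190, 0.132, 0.115 and 0.148 in dark. The lowest light value, in column 5, lay above the highest dark value, in column 3, and the dark value of column 1 was listed at 0. Groups that do not overlap, with light the higher, were found for 1.85% of the 3409 probes tested, and in either direction for 4.66%. Over the columns above 0, the mean was 0.241 ± 0.0263 in light (SD, n = 6) and 0.134 ± 0.0398 in dark (SD, n = 5). Light was higher than dark in 6 of 6 same-numbered columns, as it was for 10.1% of all probes.

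**Figure D1:**
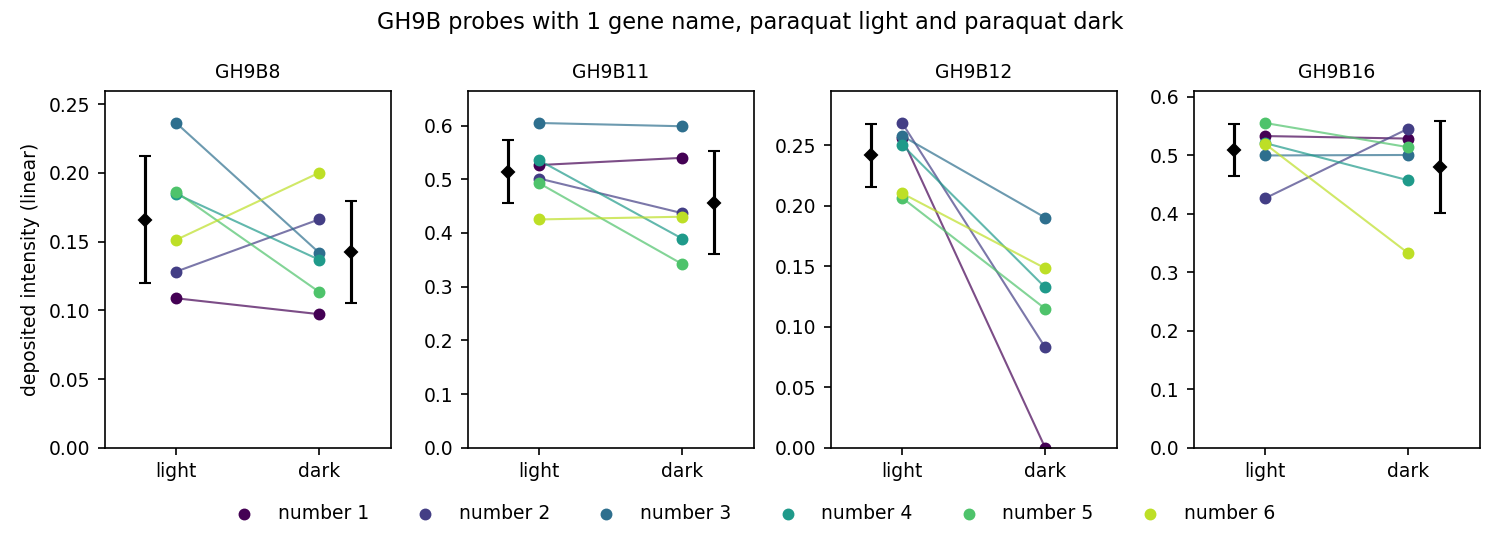
Deposited linear intensity of the 4 GH9B probes (y axis, from 0, a scale of its own per gene) in the 6 light columns and the 6 dark columns, with lines joining columns of the same number. Black diamonds with bars give the mean ± SD of a group and are left out where a value is listed at 0; for GH9B12 the light points, from 0.206 to 0.268, all lie above the dark points, from 0 to 0.190, while the groups overlap for GH9B8, GH9B11 and GH9B16.

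The fit was limma on quantile-normalised log2 values, with p adjusted by Benjamini-Hochberg over all probes and a threshold of 0.05. Of the 4 genes, 0 passed, as did 5.78% of all probes (limma, replicate number not used; 0 of the 4 at an unadjusted p under 0.05). The result for GH9B12 turned on the dark value at 0. With it, the log2 difference was 2.94 and its 95% interval ran from -1.32 to 7.19 (limma adjusted p = 0.448). That size is set by the offset of 2.53e-05 added before the logarithm, and with an offset of 0.05 it was 0.99 (limma adjusted p = 0.0844). With exact zeros taken as missing, GH9B12 rose by log2 0.88, or 1.84-fold, with an interval of 1.39 to 2.45-fold (limma adjusted p = 0.0229), and 1 of the 4 genes passed, as did 5.86% of probes. Leaving out dark column 1 altogether gave the same difference (limma adjusted p = 0.029), with 4.87% of probes called.

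The columns of 1 number deviate together across the table, so GH9B12 was also fitted with that number as a block. For the deposited log2 values of GH9B12, light and dark of the same number had a Pearson correlation of -0.146. That rests on 5 numbers, too few to show whether GH9B12 deviates in this way. Over 6 numbers the correlation was 0.144 for GH9B8, 0.550 for GH9B11 and -0.260 for GH9B16. With the value at 0 the blocked difference for GH9B12 was 2.94 (limma adjusted p = 0.343), and 0 of the 4 genes passed, against 13.1% of all probes (limma; 1 of the 4, GH9B11, at an unadjusted p under 0.05). With that value missing it was 0.86 (limma adjusted p = 0.038), with 15.6% of probes called. With dark column 1 left out for every probe, the blocked difference was again 0.86 but the threshold was missed (limma adjusted p = 0.0795), with 6.1% of probes called. Both blocked fits without the value at 0 rest on the same 5 pairs of GH9B12, as its light value in column 1 has no dark partner in either. They differ in the values of the other probes, which enter the moderation and the adjustment. By deposited intensity, the light value of columns 2 to 6 was 3.24, 1.35, 1.89, 1.80 and 1.42 times the dark value, so every pair pointed the same way and the size varied between pairs.

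Consecutive numbers of a group also deviate together, and taking them as a random block with zeros missing gave GH9B12 a log2 difference of 0.93 (limma adjusted p = 0.0907), where 0.982% of all probes passed. The exact permutation test of 6 against 6 columns compared mean log2 values, with the value at 0 kept. It gave the smallest p it can, 0.00216, two-sided, which after adjustment over all probes was 0.0505. Leaving out dark column 1, the exact permutation test of 6 against 5 columns gave 0.00433, two-sided, also the smallest it can. Groups that do not overlap always give the smallest p of such a test, so both values only restate that separation. Neither test uses the pairing by number.

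**Figure D2:**
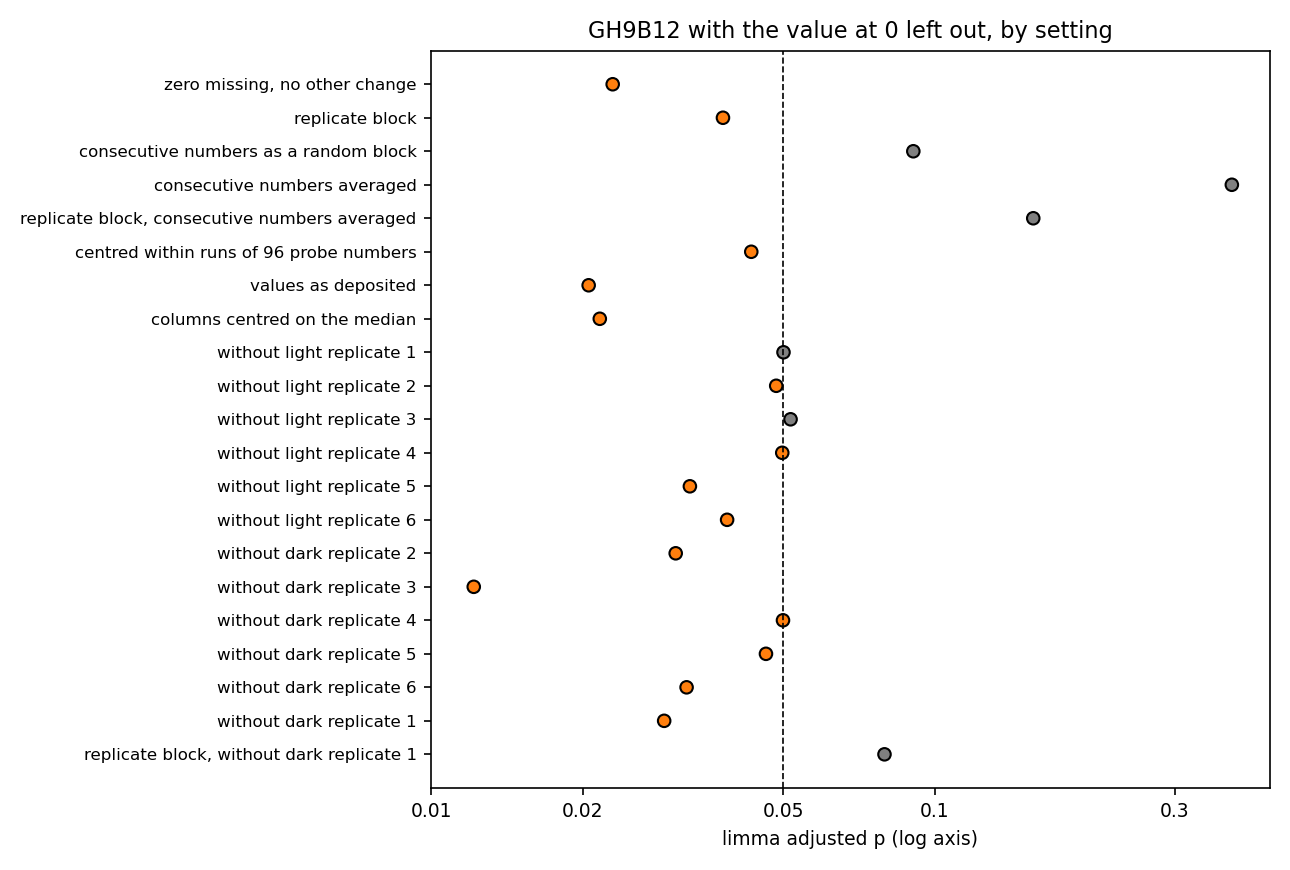
Adjusted p of GH9B12 (x axis, log scale, dashed line at 0.05) under each setting on the y axis, with exact zeros as missing or, in the lowest 2 rows, with dark column 1 left out. Orange points passed the threshold and grey points did not; adjusted p ranged from 0.0121 without dark column 3 to 0.389 with consecutive numbers averaged.

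The value at 0 was 1 of 148 zeros in dark column 1. Of the 3409 probes tested, 56 had a 0 in exactly 1 column, and for 9 of these the 0 lay in dark column 1, more than in any other column, where the count was between 2 and 7. The mean of the other 11 columns was 0.192 for GH9B12, against a median of 0.191 over the 56 probes. GH9B12 and GH9B8 both had a mean intensity under the lower quartile of all probes, 0.330, and are therefore absent from the fit without dim probes.

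GH9B11 is the gene next to GH9B12 in the RefSeq order, with GH9B10 on its other side. Its intensity in light had a lowest value of 0.425, a median of 0.514 and a highest value of 0.605, against 0.342, 0.434 and 0.599 in dark. The groups overlapped: 1 light column, number 3, exceeded the highest dark column, which was also number 3. Light was higher in 4 of 6 numbers. The means were 0.514 ± 0.0589 in light and 0.456 ± 0.0957 in dark (SD, n = 6 each). The log2 difference of 0.22 had an interval of -0.05 to 0.50, or 0.964 to 1.41-fold (limma adjusted p = 0.369). With the replicate block the interval was 0.002 to 0.44 on the log2 scale, and the threshold over all probes was not passed (limma adjusted p = 0.169).

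GH9B8 lies apart from other GH9 genes, between AUG2 and AT2G33000. Its intensity in light had a lowest value of 0.109, a median of 0.168 and a highest value of 0.236, against 0.0973, 0.139 and 0.200 in dark. Light was higher in 4 of 6 numbers and the groups overlapped over most of their range. The log2 difference of 0.23 had an interval of 0.858 to 1.59-fold (limma adjusted p = 0.622, blocked 0.404). GH9B8 was the most variable of the 4 in light, where the highest column was 2.17 times the lowest, with a coefficient of variation of 27.8% against 8.71% to 11.5% for the other genes. In dark the highest column of GH9B8 was 2.06 times the lowest.

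GH9B16 lies next to GH9B17 in the RefSeq order. Its intensity in light had a lowest value of 0.427, a median of 0.520 and a highest value of 0.555, against 0.333, 0.507 and 0.546 in dark. The medians were close, and the low dark value came from column 6 while the low light value came from column 2. The log2 difference of 0.14 had an interval of 0.926 to 1.31-fold (limma adjusted p = 0.573, blocked 0.462). Light was higher in 4 of 6 numbers by deposited intensity.

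**Figure D3:**
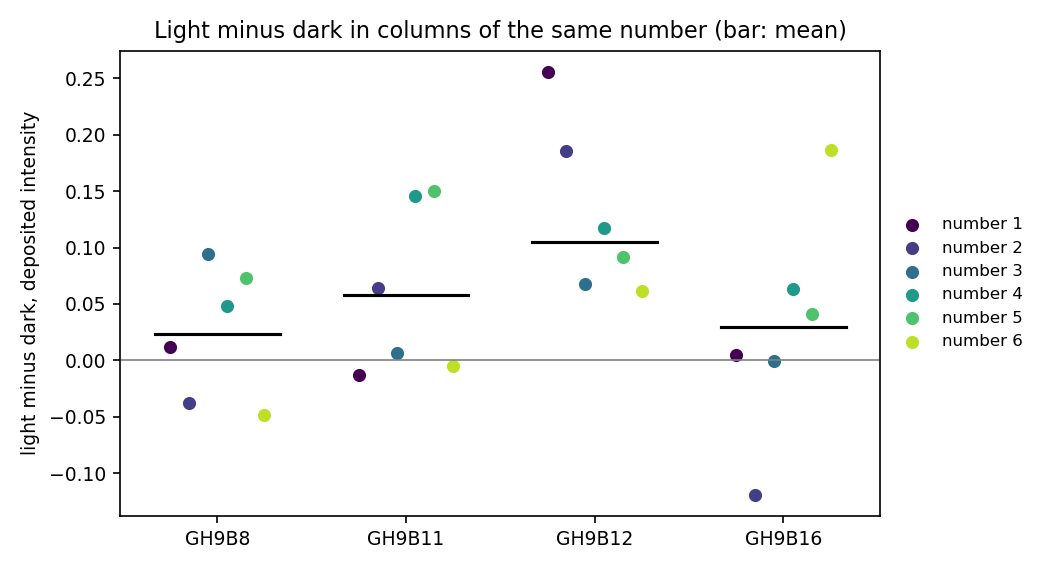
Light minus dark in deposited intensity (y axis, linear) for columns of the same number, 1 point per number and gene; bars are means over numbers with a dark value above 0, which leaves out number 1 for GH9B12. All 6 points of GH9B12 lie above 0, and each of the other 3 genes has points on both sides of 0.

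The 4 log2 differences were all positive, with a median of 0.22 beside a signed median of 0.002 over all probes tested. With that median so near 0, positive and negative differences were about equally common among all probes. The median absolute log2 difference over all probes was 0.17. Without the replicate block, the intervals of all 4 genes spanned 0. That of GH9B12 ran from -1.32 to 7.19 with its value at 0, and from 0.47 to 1.29 with exact zeros as missing. Among the numbers, the genes did not follow a shared order. The largest light minus dark difference in deposited intensity fell in number 3 for GH9B8, at 0.0945, in number 5 for GH9B11, at 0.151, in number 1 for GH9B12, at 0.256 with the dark value listed at 0, and in number 6 for GH9B16, at 0.187. GH9B8 and GH9B16 were lower in light in number 2, by -0.038 and -0.119. Across columns, the normalised log2 values of the neighbours GH9B11 and GH9B12 had a Pearson correlation of 0.758 over 11 columns. The other 5 pairs of genes lay between -0.255 and 0.234 over 11 or 12 columns. These columns share their groups and numbers, so the correlations are descriptions.

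Whether the change of GH9B12 differed from that of the other genes was tested on the ratio of 2 probes within each column, from which any scaling of the column drops out. The test was chosen after the values had been seen, with the groups of GH9B12 already known not to overlap. Its adjustment over the 6 pairs does not account for that choice, so its p-values only describe these columns. Over the 6 light and 5 dark columns where GH9B12 is above 0, its log2 change by deposited intensity was 0.90, against 0.24 for GH9B11. The ratio of GH9B11 to GH9B12 was lower in light than in dark by 0.65 on the log2 scale, with a light minus dark difference of -0.65. Its two-sided exact permutation p was 0.00433, the smallest that test can give, and 0.026 adjusted over the 6 pairs of genes. Against GH9B8 and GH9B16, which changed by 0.11 and 0.13 over the same columns, the ratios moved by -0.79 and 0.77, the first taken as GH9B8 over GH9B12 and the second as GH9B12 over GH9B16 (exact permutation p = 0.0216 each, 0.0433 adjusted). The 3 ratios without GH9B12 moved by 0.02 to 0.11, with adjusted exact permutation p between 0.847 and 0.931. All ratios that passed share the GH9B12 probe. These tests take the columns as independent and do not use the pairing by number, while same-numbered columns deviate together.

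**Figure D4:**
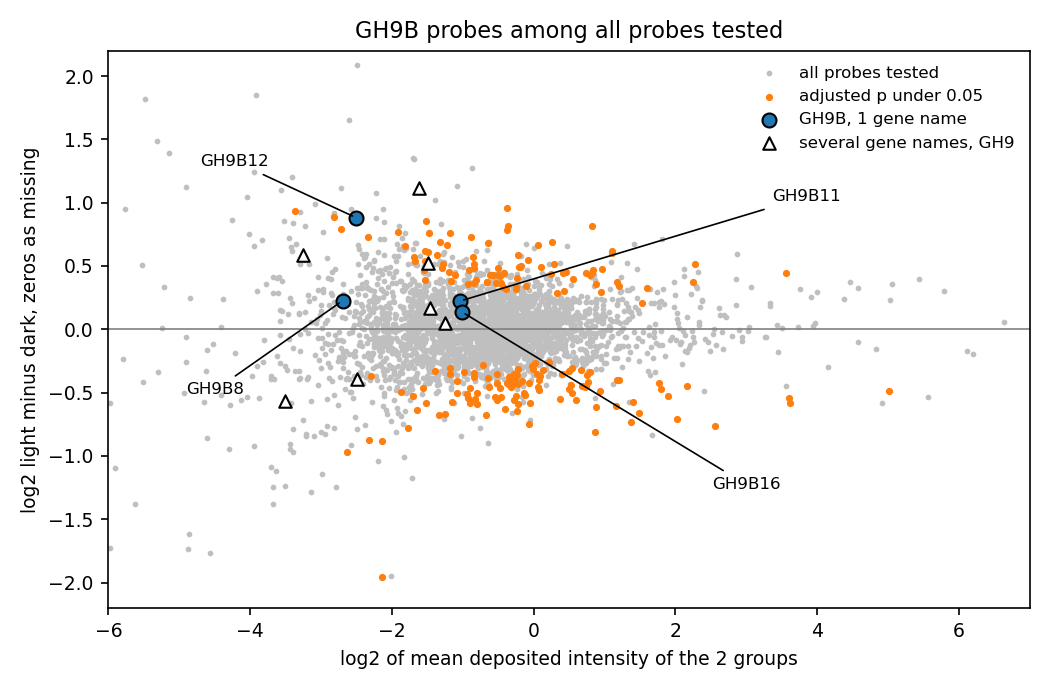
Log2 light minus dark with exact zeros as missing (y axis) against log2 of the mean deposited intensity of both groups (x axis) for the probes tested; 111 of 3409 lie outside the drawn range or have no difference. GH9B12, at 0.88, and the triangle at 1.12 stand above GH9B8, GH9B11 and GH9B16, which lie between 0.14 and 0.23; orange points have an adjusted p under 0.05.

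A further 7 probes carry at least 1 GH9 gene among several names, and their signal cannot be given to any single gene. The 4 genes GH9B9, GH9B10, GH9B11 and GH9B12 follow each other in the genome, and probe 1466 is annotated to all of them. It had intensities of 0.331 to 0.499 in light and 0.329 to 0.519 in dark, a log2 difference of 0.05 (limma adjusted p = 0.907). Probe 1478, annotated to GH9B9 and GH9B10, had 0.252 to 0.558 in light and 0.185 to 0.380 in dark, with light higher in 5 of 6 numbers and a log2 difference of 0.52 that did not pass (limma adjusted p = 0.161). With exact zeros as missing, the interval of probe 1466, 0.825 to 1.30-fold, lay below the 1.39 to 2.45-fold of the GH9B12 probe. With the value at 0 kept, the GH9B12 interval of 0.401 to 146.1-fold covered it, and how much each gene contributes to it was not tested.

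GH9B14 and GH9B15 share 2 probes, which differed in what passed the test. Probe 2884 had intensities of 0.275, 0.497, 0.360, 0.431, 0.524 and 0.560 in light columns 1 to 6, against 0.0972, 0.261, 0.190, 0.236, 0.268 and 0.221 in dark. Every light column lay above every dark column, as for 1.85% of the 3409 probes tested. Light was higher in 6 of 6 numbers, as for 10.1% of probes. Probe 2884 rose by log2 1.12, or 2.17-fold, with an interval of 1.44 to 3.28-fold (limma adjusted p = 0.0384, blocked 0.00815). Of all probes, 5.78% passed without the block and 13.1% with it. Leaving out 1 column at a time kept the log2 difference between 0.90 and 1.24, but 9 of the 12 such fits missed the threshold, with adjusted p up to 0.0818 (limma). A random block of consecutive numbers ended the call as well (limma adjusted p = 0.192). So did averaging consecutive numbers, without the replicate block or with it (limma adjusted p = 0.414 and 0.218). The exact permutation test gave an adjusted p of 0.0505. Probe 2019, with the same annotation, had 0.0562 to 0.173 in light and 0.0362 to 0.177 in dark, a log2 difference of 0.59 that did not pass (limma adjusted p = 0.509). Whether the difference between these probes is beyond their spread was not tested.

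**Figure D5:**
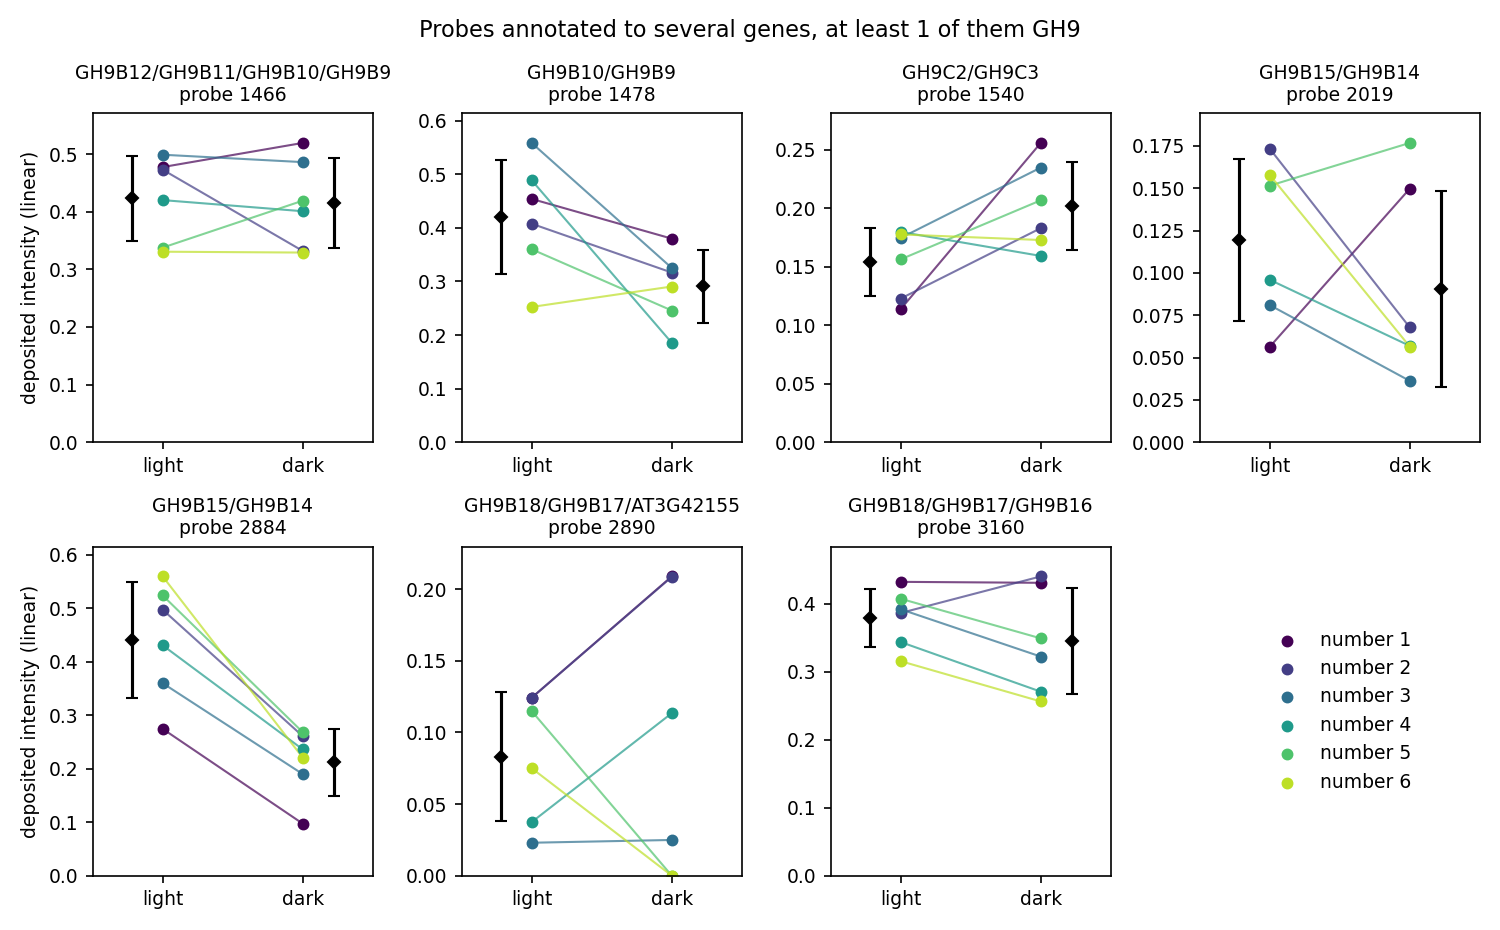
Deposited linear intensity (y axis, from 0, a scale of its own per probe) of the 7 probes annotated to several genes with at least 1 GH9 gene, in light and dark columns, with lines joining columns of the same number and black diamonds giving the mean ± SD where no value is listed at 0. Probe 2884 is the probe whose groups do not overlap, from 0.275 to 0.560 in light and from 0.0972 to 0.268 in dark.

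The remaining probes of this kind did not pass. Probe 3160, annotated to the neighbours GH9B16, GH9B17 and GH9B18, differed by log2 0.17 (limma adjusted p = 0.587, blocked 0.142), close to the 0.14 of the GH9B16 probe. Probe 1540, annotated to the class C genes GH9C2 and GH9C3, had 0.154 ± 0.0292 in light and 0.202 ± 0.0375 in dark (SD, n = 6 each), a log2 difference of -0.39 (limma adjusted p = 0.159). Probe 2890, annotated to GH9B17, GH9B18 and AT3G42155, was listed at 0 in 2 dark columns, numbers 5 and 6. Its log2 difference was 3.42 with those values and -0.57 with zeros as missing (limma adjusted p = 0.497 and 0.749), so its direction is not settled.

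The lists of other cell wall genes gave no single-gene probe to set beside these. Besides the 4 GH9B genes, 6 lists held 199 genes: other GH9 endoglucanases, cellulose synthesis, expansins, xyloglucan enzymes, pectin enzymes and other wall glycosidases. A probe with 1 gene name measured 0 of the 199. The probe annotated to EXLA2 and EXLB1, which encode expansin-like proteins, differed by log2 0.07 and did not pass the threshold. Outside the lists, and chosen after its values were seen, CSLA01, a cellulose synthase-like gene with a probe of its own, averaged 0.345 in light and 0.229 in dark. Its log2 difference was 0.64 (limma adjusted p = 0.094), which passed with the replicate block (limma adjusted p = 0.0403).

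The genes whose pattern over the columns was most like each GH9B gene were taken from 502 or 503 probes with 1 gene name, no zero and a mean above the lower quartile. For GH9B12, over 11 columns, these were AT4G27390, AT1G44830 and AT4G17260, with Pearson correlations of 0.885, 0.884 and 0.881. AT4G27390 had 1.37 ± 0.0273 in light and 1.15 ± 0.0583 in dark, and rose by log2 0.29 (SD, n = 6 each; limma adjusted p = 0.0135). AT4G17260 rose by 0.34 (limma adjusted p = 0.0428), a call that the replicate block ended (limma adjusted p = 0.0571). AT1G44830 had 0.25 (limma adjusted p = 0.0716). For GH9B11, over 12 columns, AT3G51510, UBA1A and AT2G26110 had correlations of 0.796, 0.794 and 0.738. For GH9B8 these were AT4G17070, AT1G13970 and AT3G09490, at 0.783, 0.764 and 0.755, and for GH9B16 AT5G44000, AT1G15410 and AT1G18290, at 0.780, 0.755 and 0.739. None of the 9 genes most like GH9B8, GH9B11 or GH9B16 passed the threshold, with limma adjusted p between 0.188 and 0.966, while 5.78% of all probes did. With the replicate block, AT4G17070 and AT1G13970 of these did (limma adjusted p = 0.0329 and 0.0482), beside 13.1% of all probes. These are the highest of 502 or 503 correlations per gene, over columns that share groups and numbers.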

How the data were processed

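The deposited table holds linear intensity for 3439 probes in 12 columns. The sources used here give neither its background treatment nor its scaling. Columns were grouped by their titles. Probes were named from the platform annotation (692 with 1 gene name, 870 with several, 1877 with none). RefSeq TAIR10.1, of the Columbia ecotype, gave loci and gene order only. All 4 members matched it. Members and gene lists were chosen with earlier results of these data known.

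The deposited intensity values were quantile-normalised with zeros kept at 0 and transformed as log2(value + 2.53e-05). The 30 probes at 0 throughout were left out, leaving 3409 for limma version 3.58.1 under R 4.3.3, with moderated two-sided tests, 95% intervals and Benjamini-Hochberg adjustment. With zeros as missing, 3361 gave a test. Named genes were the 4 members, measured members of the lists and the 3 genes most correlated with each member; other genes and probes were chosen after their values were seen. Permutation tests used scipy 1.17.1, tables pandas 2.3.3 with numpy 2.4.6 and figures matplotlib 3.10.9, in Python 3.11.15. The number of arrays limits the precision. The fit was tested on simulated data that held no zeros and no shared deviation of consecutive numbers. That simulation does not cover the GH9B12 value at 0.

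The replicate numbers come from the titles. Over 2554 probes, deviations of same-numbered light and dark columns correlated by 0.660 to 0.786, and 12 of 12 columns matched their own number best, so the numbers pair the columns. Consecutive numbers of a group correlated by 0.300 on average. Alternatives covered scaling, offset, zeros, dim probes, blocks, averaging, runs of 96 probe numbers, moderation, permutation and leaving out each column.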

Additional observations from a re-analysis of the deposited data

Results flagged for a closer look

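Of 32 groups of 6 values checked for a column far from the other 5, 1 stood apart, where chance gives about 1.6. It was the green tissue marker LHB1B2, a light-harvesting protein of photosystem II, at 14.8 in light column 5, against 10.4 to 12.0 in the other light columns. The check used deposited linear intensity. On that scale no group of the 4 GH9B genes or of the 7 shared GH9 probes stood out, the dark value of GH9B12 at 0 included. On the log2 scale of the fit that value does lie far from the rest. There the light minus dark difference of GH9B12 was 13.3 in number 1, against 0.37 to 1.75 in the other numbers.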

How the results depend on the processing

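The differences of GH9B8, GH9B11 and GH9B16 stayed positive and short of the threshold in every alternative that could be run, at 0.11 to 0.33, 0.15 to 0.31 and 0.04 to 0.22 on the log2 scale. GH9B8 and GH9B12 have no value without dim probes. GH9B12 stayed positive too. It passed in none of the settings that keep its value at 0, with adjusted p from 0.0505 to 0.742. Of the planned settings, it passed in 3 that remove it: exact zeros as missing (0.88), the replicate block with zeros as missing (0.86) and without dark column 1 (0.88). All 3 rest on the values of GH9B12 above 0, so they are not separate evidence. With the replicate block, its light value in column 1 has no dark partner and does not enter the difference. Leaving out 1 column gave 0.88 to 3.46. With the value missing, it also passed for deposited values (0.90, limma adjusted p = 0.0205) and after centring on the median (0.93, limma adjusted p = 0.0216). Centring within runs of 96 probe numbers kept the call too (0.78, limma adjusted p = 0.0432). It no longer passed with a random block of consecutive numbers (0.93), averaged (0.99; limma adjusted p = 0.389), averaged with the replicate block (0.99; 0.157), or with the replicate block and no dark column 1 (0.86). Leaving out 1 column then gave 0.72 to 1.02 with adjusted p of 0.0121 to 0.0517, the highest being without light column 3 (0.87) and, at 0.0501, without light column 1, where the call ended. Settings with the value missing, other than the planned 3, were added after seeing the data. The replicate block changed no other call of the 4 genes.

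The count of 197 probes over the table became 448 with the replicate block and 525 with zeros also missing, 42 with a random block of consecutive numbers, and 0 with consecutive numbers averaged, without the replicate block or with it (limma; at an unadjusted p under 0.05, 335 without and 618 with the block), or by the exact permutation test (691). Leaving out 1 column gave 107 to 174. The 197 split into 89 higher and 108 lower, against 62 and 117 for deposited values and 116 and 105 after centring on the median. No depth is known, and the dimness of GH9B8 and GH9B12 limits their precision.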
